A study of Mus musculus with 4 samples.

Results

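The DNA replication machinery was followed through 46 genes, taken by symbol from the 24497 features of a deposited expression table, and all 46 were found and passed the filter on low values. They were sorted by role into origin recognition, the licensing loaders and their inhibitor, the MCM helicase, helicase activation, the replicative polymerases, the sliding clamp and its loader, single-strand binding, Okazaki fragment maturation, chromatin assembly and thymidine salvage. The RNA was taken from the spleens of mice that had received MLL-AF9 cells, a transplantable mouse model of acute myeloid leukaemia in which the donor cells carry the fusion gene of that name. The CS1 group (2 libraries) came from mice given CS1, which inhibits FTO, an enzyme that removes methyl groups from RNA. The dose was 5 mg/kg, injected into the peritoneum every other day during 20 days. The mice of the PBS group (2 libraries) were injected with PBS as the control. Both groups were secondary recipients, irradiated with 320 rads and carrying the same kind of CD45.2 leukaemia cells, and CD45.2-positive cells were pulled from their spleens on magnetic beads after lysis of red blood cells, before poly(A) RNA was selected. The age, sex and strain of the mice, any pooling of animals and the CD45 type of the host cells were not stated in the labels. For CS1 replicate 2 the label on treatment says CS2, whereas title and description say CS1, so it was counted as CS1.

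Replication starts at origins marked by the origin recognition complex. In G1 phase CDC6 and CDT1 load the ring-shaped MCM helicase onto that DNA, which is called licensing, and geminin blocks CDT1 later in the cycle so that no origin is used again. At the start of S phase the kinase CDC7 with its partner DBF4, together with CDC45 and the GINS complex, turns the loaded ring into a working helicase. DNA polymerase alpha with primase then lays down primers, polymerases epsilon and delta copy the leading and lagging strands on the PCNA clamp, and FEN1 and LIG1 join the lagging-strand pieces. Many of these genes are known targets of E2F transcription factors and are transcribed most strongly in dividing cells, which makes them common markers of proliferation in leukaemia.

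The genes of the machinery moved in both directions, as did the features of the whole table. In CS1 libraries 19 of the 46 were higher and 10 were lower at an adjusted p under 0.05 in limma, and 17 were not called. After TMM scaling between libraries the split was 13 higher and 11 lower. Over all 11866 features tested, 67.0% were called in either direction, 35.3% higher and 31.6% lower, against 63.0%, 41.3% and 21.7% of these 46, so the share called was near that of the whole table. The groups did not overlap for 36 of the 46 genes (78.3%), against 84.4% of all tested features. The median log2 fold change of the 46 was 0.11 on the log2(TPM + 1) scale, where all tested features had 0.04, and the median size of the change regardless of sign was 0.19 against 0.31. Their summed level was 2205 and 2187 TPM (a share of transcripts, corrected for transcript length) in CS1 libraries, against 2181 and 2208 TPM in PBS libraries. The sums overlapped, while single genes inside them changed in opposite directions. In a bulk sample, fewer cells that express a gene and less RNA per expressing cell cannot be told apart.

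**Figure D1:**
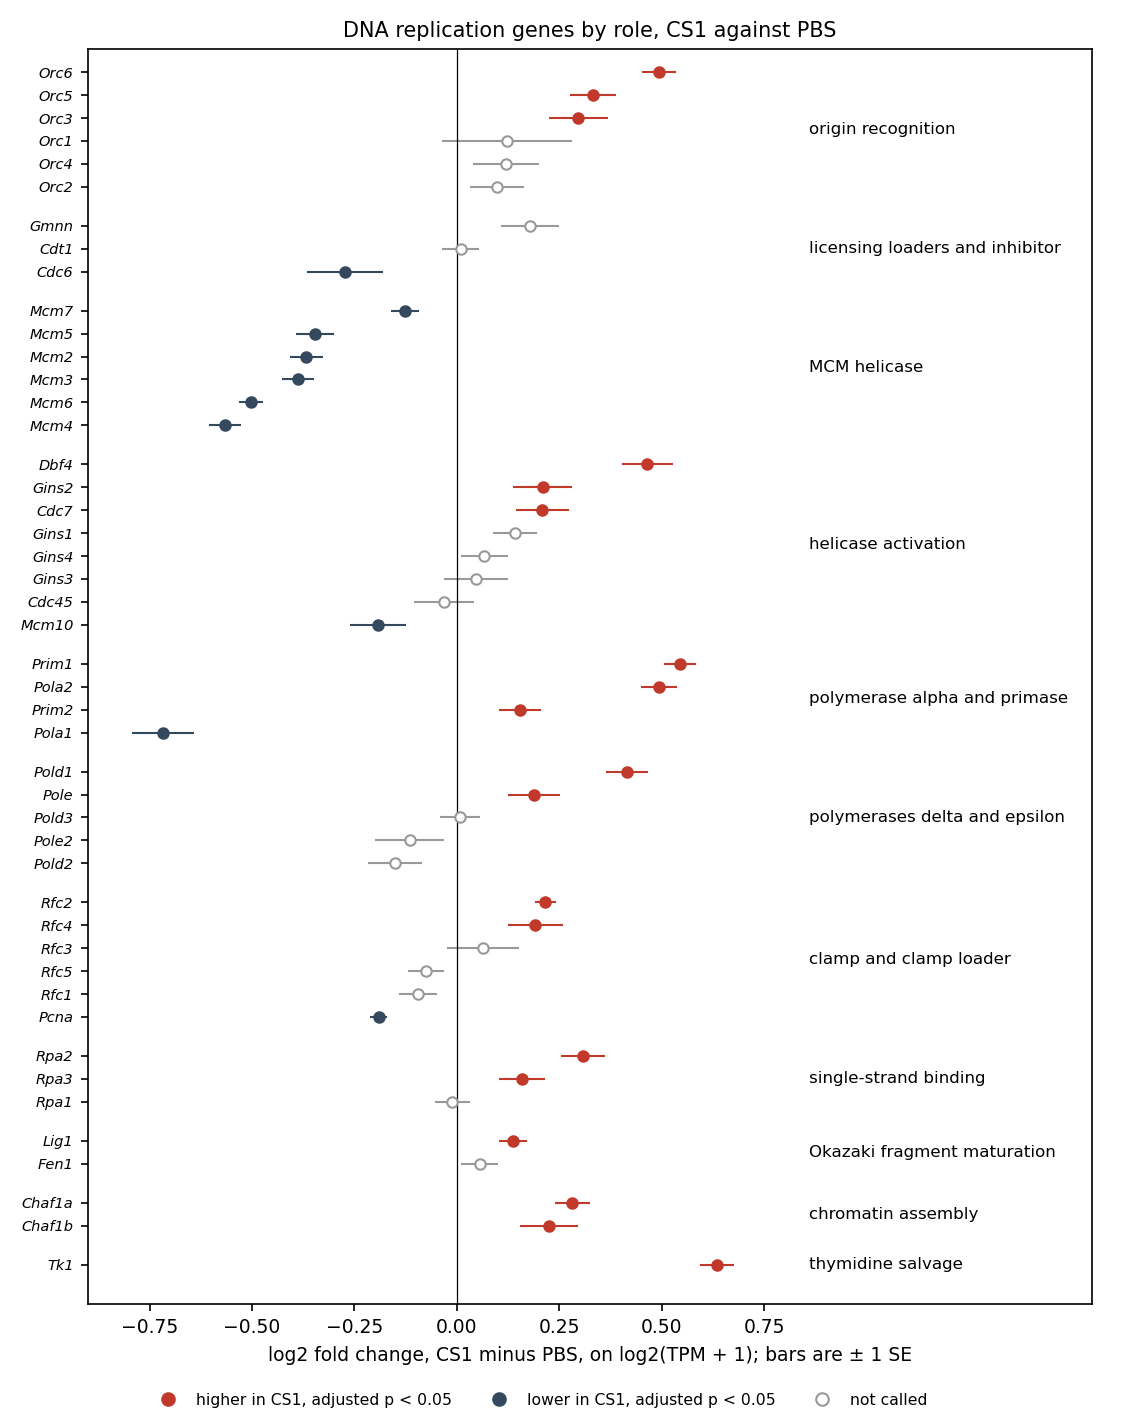
Log2 fold change of each of the 46 replication genes, CS1 minus PBS, on the log2(TPM + 1) scale, ordered by role; points are limma estimates from 2 CS1 and 2 PBS libraries and bars are 1 standard error. All 6 MCM helicase genes lie below 0, and within polymerase alpha and primase Pola1 lies at -0.72 while Pola2, Prim1 and Prim2 lie above 0.

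The MCM helicase was the role whose genes were all lower in CS1. It is a ring of 6 related ATPases, encoded by Mcm2 to Mcm7, that unwinds DNA ahead of the fork. Of its 6 genes 6 were lower, where 31.6% of all tested features were lower. Their log2 fold changes had a median of -0.38. Mcm6 stood at 98.5 and 96.5 TPM in CS1 libraries, against 136 and 141 TPM in PBS libraries. Mcm4 stood at 42.2 and 41.0 TPM in CS1 libraries, against 60.9 and 63.3 TPM in PBS libraries. Both CS1 libraries lay below both PBS libraries for each of the 6 genes, where the groups did not overlap for 84.4% of all tested features. Mcm4 fell by 0.57 ± 0.04 on the log2 scale (SE, adjusted p = 8.7e-05) and Mcm6 by 0.50 ± 0.03 (adjusted p = 4.84e-05). Mcm3 stood at 80.5 and 76.0 TPM in CS1 libraries, against 101 and 104 TPM in PBS libraries. Mcm2 stood at 48.2 and 45.99 TPM in CS1 libraries, against 62.0 and 60.1 TPM in PBS libraries. These are ratios of CS1 to PBS means of 0.762 for Mcm3 and 0.772 for Mcm2, with adjusted p = 0.000362 and 0.000518. Mcm5 stood at 72.6 and 72.8 TPM in CS1 libraries, against 96.7 and 88.8 TPM in PBS libraries, and fell by 0.35 on the log2 scale (adjusted p = 0.0011), a call lost with no filter on low values. Mcm7 changed least, at 107 and 102 TPM in CS1 libraries against 113 and 115 TPM in PBS libraries (log2 fold change -0.13 ± 0.03, adjusted p = 0.0181). Its call was lost in 6 of the 11 alternative settings (-0.032 after quantile normalization), and 557 of its 4426 exon bases overlap Ap4m1, Cops6, Mir25 or Mir93, so its value is uncertain to that extent.

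**Figure D2:**
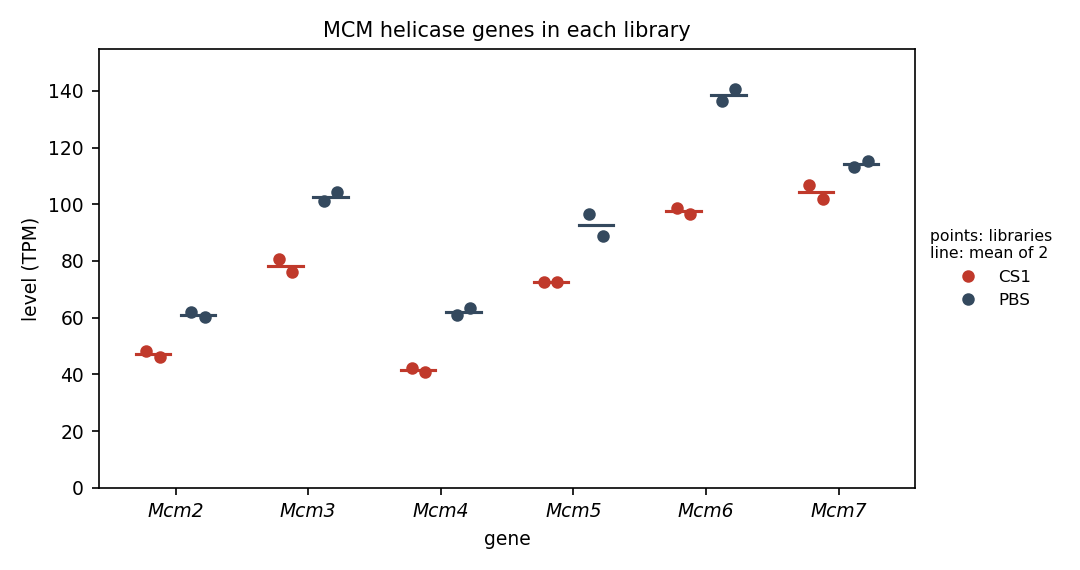
Levels of Mcm2 to Mcm7 in TPM in each library, CS1 left of PBS; points are libraries and lines are means of 2. The CS1 points lie below the PBS points for every gene, from 42.2 and 41.0 against 60.9 and 63.3 TPM for Mcm4 to 107 and 102 against 113 and 115 TPM for Mcm7.

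The uneven falls changed the proportions among the MCM transcripts, which do not measure the proteins of the ring. The 6 MCM genes summed to 442 ± 10.6 TPM in CS1 libraries and 571 ± 1.46 TPM in PBS libraries (SD, n = 2 each), which was 20.1% ± 0.362 of the summed level of the 46 genes in CS1 and 26.0% ± 0.166 in PBS. The other 40 genes summed to 1755 ± 2.44 TPM in CS1 libraries and 1623 ± 18.2 TPM in PBS libraries. Mcm7 had the highest level of the 6 in both CS1 libraries, whereas Mcm6 had the highest in both PBS libraries. The ratio of Mcm4 to Mcm7 was 0.395 and 0.402 in CS1 libraries, against 0.539 and 0.550 in PBS libraries. The groups did not overlap in that ratio. The fall of the MCM transcripts held its direction for 6 of 6 genes in all 11 alternatives, with 4 to 6 of them called. In mm10, Mcm4 lies on chromosome 16 (15623897 to 15637400, minus strand) and Mcm6 on chromosome 1 (128331590 to 128359664, minus strand).

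Origin recognition genes lay on the other side, all above 0 in the main fit. The complex binds origins and recruits the loaders. Of its 6 genes 3 were higher and 0 lower, where 35.3% of all tested features were higher and 31.6% lower. The log2 fold changes of the 6 had a median of 0.21. That median was 0.123 after quantile normalization, 0.133 without CS1 replicate 1 and 0.322 without CS1 replicate 2. Orc6, the small subunit, stood at 39.3 and 39.3 TPM in CS1 libraries, against 27.4 and 27.9 TPM in PBS libraries. Orc5, an ATPase-fold subunit, stood at 23.2 and 23.9 TPM in CS1 libraries, against 18.1 and 19.0 TPM in PBS libraries. Orc3, a structural subunit, stood at 23.7 and 21.1 TPM in CS1 libraries, against 18.3 and 17.7 TPM in PBS libraries. In each of these genes both CS1 libraries were above both PBS libraries, with log2 fold changes of 0.49 (adjusted p = 0.000184), 0.33 (adjusted p = 0.00297) and 0.30 (adjusted p = 0.0126) for Orc6, Orc5 and Orc3. Orc3 lost its call in 3 of the 11 alternatives. Orc2 and Orc4 were not called (log2 fold changes of 0.10 and 0.12), and neither was Orc1, the cell-cycle-regulated ATPase. Orc1 was the lowest of the 46 genes, at 5.10 and 3.57 TPM in CS1 libraries and 3.89 and 3.81 TPM in PBS libraries. Its change of 0.12 turned to -0.107 after quantile normalization and to -0.086 without CS1 replicate 1. Mcm2 stood at 2.38 and 2.47 times the level of Orc2 in CS1 libraries, against 3.36 and 3.39 times in PBS libraries.

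Of the factors that load and restrain the helicase, 1 of 3 was called, where 67.0% of all tested features were called. Cdc6, the loader ATPase, stood at 9.19 and 10.7 TPM in CS1 libraries, against 12.5 and 11.9 TPM in PBS libraries, and fell by 0.27 ± 0.09 on the log2 scale (SE, adjusted p = 0.0409). This call was lost in 6 of the 11 alternatives, with a change of -0.174 without CS1 replicate 1. Cdt1, which brings the MCM ring to the origin, stood at 71.2 and 69.0 TPM in CS1 libraries and 72.3 and 67.1 TPM in PBS libraries. The groups overlapped for Cdt1. Gmnn, which encodes the CDT1 inhibitor geminin, stood at 68.0 and 65.7 TPM in CS1 libraries, against 54.7 and 63.4 TPM in PBS libraries, and was not called (log2 fold change 0.18, adjusted p = 0.067). Its groups did not overlap, and it passed after quantile normalization (adjusted p = 0.0283) and without PBS replicate 2 (adjusted p = 0.00869), within a range of 0.00869 to 0.391 across alternatives. The ratio of Cdt1 to Gmnn was 1.05 in both CS1 libraries, against 1.32 and 1.06 in PBS libraries, so PBS replicate 1 alone stood apart.

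Among the 8 helicase activation genes 3 were higher and 1 lower, beside 35.3% higher and 31.6% lower over all tested features. Their median log2 fold change was 0.10, and 0.056 without CS1 replicate 2. Dbf4, the regulatory partner that switches on the CDC7 kinase, stood at 34.8 and 32.1 TPM in CS1 libraries, against 23.1 and 24.8 TPM in PBS libraries (log2 fold change 0.46 ± 0.06, SE, adjusted p = 0.00115). Cdc7 itself stood at 19.7 and 18.6 TPM in CS1 libraries, against 16.0 and 16.9 TPM in PBS libraries (0.21 ± 0.06, adjusted p = 0.0307). Both genes were higher in each CS1 library than in either PBS library, and the ratio of Cdc7 to Dbf4 was 0.567 and 0.578 in CS1 against 0.691 and 0.682 in PBS. Gins2, of the 4-subunit GINS complex, rose by 0.21 (adjusted p = 0.0446), while Gins1, Gins3 and Gins4 were not called and had log2 fold changes of 0.14, 0.05 and 0.07. Mcm10, a fork protein outside the ring, fell by 0.19 (adjusted p = 0.0495), and Cdc45 was not called (-0.03, adjusted p = 0.728). The calls of Cdc7, Gins2 and Mcm10 were lost in 7, 8 and 6 of the 11 alternatives. After quantile normalization Cdc7 and Gins2 had changes of 0.118 and 0.133, and Mcm10 had -0.124 without CS1 replicate 1. In GENCODE 2758 of the 4097 exon bases of Gins2 overlap Gse1.

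Polymerase alpha and primase form a single 4-subunit enzyme, and its genes parted company. Pola1, which encodes the catalytic polymerase subunit, stood at 8.47 and 7.97 TPM in CS1 libraries, against 13.9 and 14.5 TPM in PBS libraries. Prim1, the catalytic primase subunit, stood at 57.2 and 57.0 TPM in CS1 libraries, against 38.0 and 39.7 TPM in PBS libraries. Pola2, the accessory subunit of the polymerase, stood at 50.8 and 47.9 TPM in CS1 libraries, against 34.7 and 34.9 TPM in PBS libraries. Pola1 was thus lower in both CS1 libraries and its partners higher, with log2 fold changes of -0.72 ± 0.07 for Pola1 (SE, adjusted p = 0.000421), 0.54 ± 0.04 for Prim1 (adjusted p = 0.000102) and 0.49 ± 0.04 for Pola2 (adjusted p = 0.000232). Prim2, the regulatory primase subunit, stood at 34.7 and 32.3 TPM in CS1 libraries, against 30.4 and 29.6 TPM in PBS libraries. It rose by 0.15 (adjusted p = 0.0409), a call lost in 6 of the 11 alternatives. The ratio of Pola1 to Prim1 was 0.148 and 0.140 in CS1 libraries, against 0.365 and 0.364 in PBS libraries, and that of Pola1 to Pola2 was 0.167 and 0.166 against 0.400 and 0.415. Ratios between genes of the same library do not depend on the scaling of that library. Pola1 was the lowest of the 4 genes in every library, and the fall of Pola1 was the largest among the 46 genes. It lies on chromosome X (93304767 to 93632155, mm10, minus strand), Prim1 on chromosome 10 (128015168 to 128030037, plus strand) and Pola2 on chromosome 19 (5940542 to 5964202, minus strand).

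**Figure D3:**
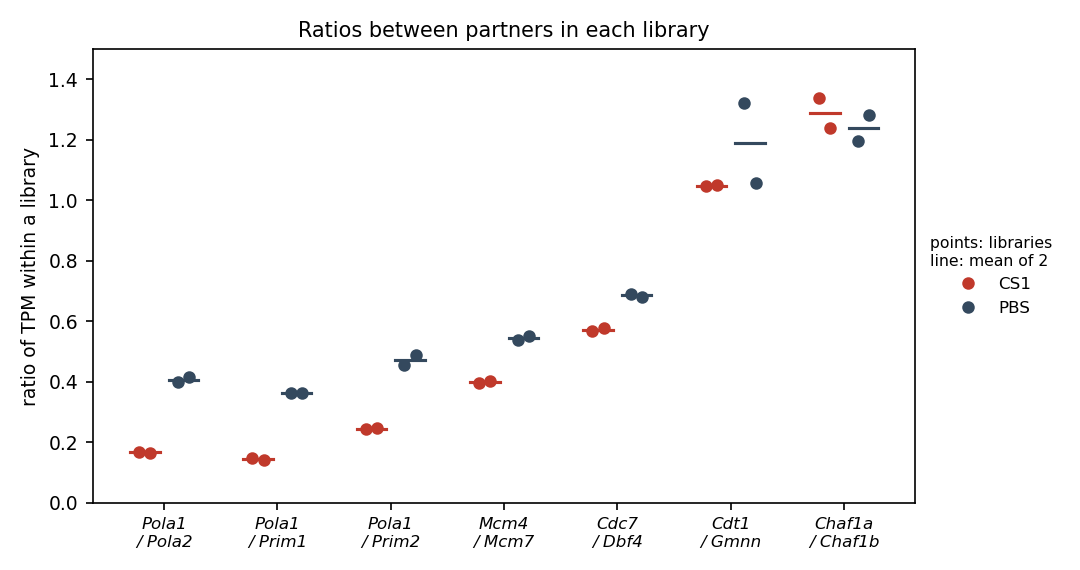
Ratio of the TPM of pairs of partner genes within each library, CS1 left of PBS; points are libraries and lines are means of 2. The ratios of Pola1 to each of its partners lie lower in CS1, at 0.148 and 0.140 against 0.365 and 0.364 for Prim1, while the ratios of Chaf1a to Chaf1b overlap between the groups.

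The stretches before the start sites of genes from both sides are shown here as examples, chosen after the matches were known, with and without the letters of E2F sites on each side. Sequences were taken from RefSeq's promoter table (GRCm38.p6), which matched 38 of the 46 genes. Not shown and not counted are Gmnn, Mcm4, Gins1, Gins2, Gins4, Prim2, Pole and Rfc2. Each line gives bases -200 to -1 before the RefSeq start, 5′ to 3′ on the gene's strand. Capitals mark any of the E2F letters TTTCCCGC, TTTCGCGC, TTTGCCGC and TTTGGCGC and the CCAAT box, on either strand, so that GCGCCAAA and ATTGG are matches of the reverse strand. Matches may overlap, as in Mcm5 and Mcm6.
Mcm3 promoter, chr1:20820313-20820512, minus strand: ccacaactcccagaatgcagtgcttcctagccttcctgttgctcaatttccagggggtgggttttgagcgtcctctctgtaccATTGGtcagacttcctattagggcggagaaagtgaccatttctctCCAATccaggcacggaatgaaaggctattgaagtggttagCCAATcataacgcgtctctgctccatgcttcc
Mcm5 promoter, chr8:75109309-75109508, plus strand: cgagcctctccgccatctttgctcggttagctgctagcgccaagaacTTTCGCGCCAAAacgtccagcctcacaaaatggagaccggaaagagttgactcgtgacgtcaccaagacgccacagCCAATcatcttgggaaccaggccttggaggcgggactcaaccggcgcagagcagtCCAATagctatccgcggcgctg
Mcm6 promoter, chr1:128359706-128359905, minus strand: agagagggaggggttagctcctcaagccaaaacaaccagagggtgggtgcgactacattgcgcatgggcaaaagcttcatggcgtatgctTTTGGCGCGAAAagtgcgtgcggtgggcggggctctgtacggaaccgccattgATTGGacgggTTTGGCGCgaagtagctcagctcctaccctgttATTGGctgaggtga
Pola1 promoter, chrX:93632156-93632355, minus strand: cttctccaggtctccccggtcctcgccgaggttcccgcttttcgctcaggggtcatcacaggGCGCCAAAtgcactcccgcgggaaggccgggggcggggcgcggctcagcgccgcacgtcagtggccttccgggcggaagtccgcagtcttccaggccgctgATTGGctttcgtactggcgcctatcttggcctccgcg
Pola2 promoter, chr19:5964207-5964406, minus strand: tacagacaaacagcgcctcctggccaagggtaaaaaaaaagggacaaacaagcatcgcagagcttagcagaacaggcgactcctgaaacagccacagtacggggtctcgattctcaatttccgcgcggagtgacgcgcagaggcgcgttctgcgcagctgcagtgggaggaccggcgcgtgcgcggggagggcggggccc
Orc3 promoter, chr4:34614943-34615142, minus strand: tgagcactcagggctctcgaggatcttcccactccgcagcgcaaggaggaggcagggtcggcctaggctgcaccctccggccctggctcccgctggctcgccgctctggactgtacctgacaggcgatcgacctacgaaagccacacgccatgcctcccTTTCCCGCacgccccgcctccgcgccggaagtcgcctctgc
Orc6 promoter, chr8:85299432-85299631, plus strand: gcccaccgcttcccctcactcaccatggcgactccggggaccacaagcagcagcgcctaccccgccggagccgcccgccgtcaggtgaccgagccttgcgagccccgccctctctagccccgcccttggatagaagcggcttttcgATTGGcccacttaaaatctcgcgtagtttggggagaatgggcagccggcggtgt
Of the genes lower in CS1, Mcm6 holds 3 E2F matches and 2 CCAAT boxes in these stretches, Mcm5 holds 2 of each and Pola1 holds 1 of each, while Mcm3 holds 3 CCAAT boxes and no E2F match. Of the genes higher in CS1, Orc3 holds 1 E2F match and no CCAAT box, Orc6 holds a CCAAT box alone, and Pola2 holds neither.

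Over the 250 bases before the start, in any of a gene's listed windows, the E2F letters occurred in 5 of 9 matched genes that were lower in CS1 (Cdc6, Mcm5, Mcm6, Mcm7 and Pola1) and in 1 of 15 that were higher (Orc3). The lower genes without them were Mcm2, Mcm3, Mcm10 and Pcna. The E2F letters occurred in 3 of 14 that were not called (Orc1, Gins3 and Rfc3), and in 9 of all 38 matched replication genes (23.7%). They occurred in 4.06% of all tested genes with a promoter entry and in 2.16% of all genes in the table. Among genes whose call held in all 11 alternatives the counts were 2 of 5 lower and 0 of 8 higher. The CCAAT box, the letters bound by NF-Y, occurred in 8 of 9 lower, 5 of 15 higher and 9 of 14 uncalled genes. Its share was 57.9% of the 38 matched replication genes, against 41.0% of tested genes. It was present in 5 of 5 matched MCM genes. The motif TTTGAA, the core of the cell-cycle element called CHR, occurred in 1 of 9 lower, 1 of 15 higher and 4 of 14 uncalled genes, against 12.8% of tested genes. The median GC content of these windows was 56.8% for the lower and 63.6% for the higher genes. The split was looked at after the calls were known, no test was made of it, and a match of letters is not evidence of binding.

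Of the 5 listed genes of polymerases delta and epsilon 2 were higher and 0 lower, against 35.3% and 31.6% of all tested features. The companion genes below hold 3 more of their subunits. Of these, Pole3 was higher (0.48, adjusted p = 0.00615), Pole4 was lower (-0.21, adjusted p = 0.0205) and Pold4 was not called. These 3 were named after their values were seen. Pold1, the catalytic subunit of the lagging-strand polymerase delta, stood at 53.2 and 50.7 TPM in CS1 libraries, against 37.3 and 40.1 TPM in PBS libraries (log2 fold change 0.42 ± 0.05, SE, adjusted p = 0.000793). Its partners were not called. Pold2 stood at 28.9 and 31.2 TPM in CS1 libraries, against 31.9 and 35.1 TPM in PBS libraries (log2 fold change -0.15, adjusted p = 0.0868), and Pold3 had a log2 fold change of 0.01. Pole, the catalytic subunit of the leading-strand polymerase epsilon, rose by 0.19 (adjusted p = 0.039), a call lost in 8 of the 11 alternatives (0.099 after quantile normalization). Pole2, an accessory subunit of polymerase epsilon, overlapped between groups (-0.12, adjusted p = 0.268). The catalytic genes of the 3 polymerases therefore lay at -0.72 for Pola1, 0.42 for Pold1 and 0.19 for Pole.

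**Figure D4:**
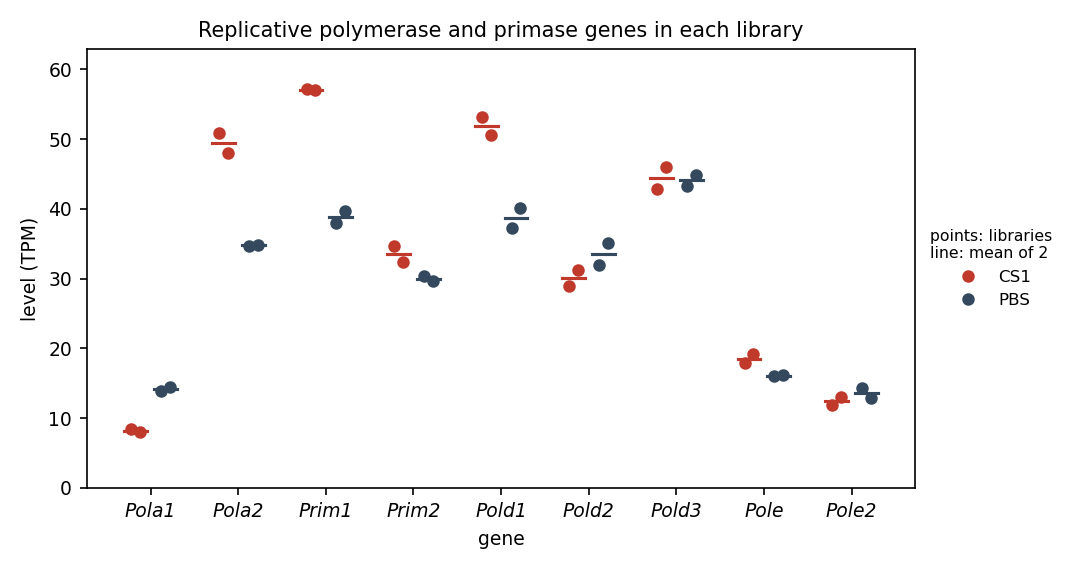
Levels of the polymerase and primase genes in TPM in each library, CS1 left of PBS; points are libraries and lines are means of 2. Pola1 is lower in CS1, at 8.47 and 7.97 against 13.9 and 14.5 TPM, while Pola2, Prim1 and Pold1 are higher, and Pold3 overlaps between the groups.

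Pcna, the sliding clamp that holds polymerases on DNA, had the highest level of the 46 genes and was lower in CS1. It stood at 264 and 265 TPM in CS1 libraries, against 301 and 303 TPM in PBS libraries. The groups did not overlap, and the fall of 0.19 ± 0.02 on the log2 scale (SE, adjusted p = 0.000498) was small but larger than the spread between replicates. After quantile normalization it was -0.083 (adjusted p = 0.0121, range 0.000356 to 0.014 across alternatives). Processed pseudogenes of Pcna are annotated, so reads shared with them would make the level uncertain. The clamp loader divided, with Rfc2 and Rfc4 higher and Rfc1, Rfc3 and Rfc5 not called. Rfc2 stood at 113.5 and 113.4 TPM in CS1 libraries, against 97.6 and 97.5 TPM in PBS libraries (log2 fold change 0.22, adjusted p = 0.000756). It shares 952 of its 6303 exon bases with Lat2, so its value is uncertain to that extent. Rfc4 rose by 0.19 (adjusted p = 0.048), a call lost in 7 of the 11 alternatives (0.115 without CS1 replicate 2), and the genes not called had log2 fold changes from -0.09 (Rfc1) to 0.06 (Rfc3).

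The single-strand binding protein RPA, which coats unwound DNA, is a trimer. Of its 3 genes 2 were higher, where 35.3% of all tested features were higher. Rpa2 stood at 46.1 and 43.7 TPM in CS1 libraries, against 34.7 and 37.5 TPM in PBS libraries (log2 fold change 0.31 ± 0.05, SE, adjusted p = 0.00353), and Rpa3 rose by 0.16 (adjusted p = 0.0458). Rpa1, the large subunit, overlapped between groups at 98.0 and 95.6 TPM in CS1 and 101 and 94.0 TPM in PBS. Rpa2 lost its call with no filter on low values (adjusted p = 0.0742, range 0.00267 to 0.0742 across alternatives), and Rpa3 lost its call in 6 of the 11 (0.095 without PBS replicate 1). Of the enzymes that finish Okazaki fragments, the ligase gene Lig1 stood at 55.6 and 56.5 TPM in CS1 libraries, against 51.2 and 50.6 TPM in PBS libraries (log2 fold change 0.14, adjusted p = 0.0142). That call was lost without PBS replicate 2 or without CS1 replicate 2. The flap nuclease gene Fen1 was not called and overlapped between groups, at 49.9 and 47.2 TPM in CS1 and 45.7 and 47.6 TPM in PBS.

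Both listed genes of chromatin assembly factor 1, which places histones on newly made DNA at PCNA, were higher, against 35.3% of all tested features. Rbbp4, which encodes a further subunit, was counted among the companion genes below and fell by 0.12 (adjusted p = 0.0124). That gene was named after its value was seen. Chaf1a stood at 36.7 and 37.6 TPM in CS1 libraries, against 30.6 and 30.1 TPM in PBS libraries (log2 fold change 0.28 ± 0.04, SE, adjusted p = 0.00184). Chaf1b stood at 27.4 and 30.3 TPM in CS1 libraries, against 25.6 and 23.5 TPM in PBS libraries (0.22 ± 0.07, adjusted p = 0.0329). Neither gene overlapped between groups, and the ratio of Chaf1a to Chaf1b did, at 1.34 and 1.24 in CS1 and 1.2 and 1.28 in PBS. The call of Chaf1b was lost in 7 of the 11 alternatives, and 4648 of the 8854 exon bases of Chaf1a overlap Ubxn6. Tk1, the thymidine kinase that salvages thymidine in S phase, had the largest rise of the 46 genes. It stood at 92.7 and 93.8 TPM in CS1 libraries, against 61.9 and 57.7 TPM in PBS libraries, for a log2 change of 0.63 ± 0.04 (SE, adjusted p = 6.97e-05). Both CS1 libraries were far above both PBS libraries.

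Of the 29 calls, 15 held in all 11 alternative settings, with 9 genes higher and 6 lower. The higher ones were Orc5, Orc6, Dbf4, Pola2, Prim1, Pold1, Rfc2, Chaf1a and Tk1, and the lower ones were Mcm2, Mcm3, Mcm4, Mcm6, Pola1 and Pcna. Changes were modest in size, since 5 called genes (Mcm4, Mcm6, Pola1, Prim1 and Tk1) moved by at least 0.50 on the log2 scale and 17 by at least 0.25. Without CS1 replicate 2, whose treatment field differs, 12 genes were called higher in place of 19, and the 15 above stayed called. In all, exons of 12 of the 46 genes overlap those of another tested feature, and without a stated strand their reads cannot be told apart. The 46 genes lie on 15 chromosomes.

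Of 56 genes of origin firing, fork proteins, other polymerase subunits, primer removal, histone deposition, nucleotide supply and the E2F and RB families, 18 were higher and 16 lower, with a median log2 fold change of 0.10. Those shares, 32.1% and 28.6%, were near the 35.3% and 31.6% of all tested features. The 3 largest rises were Chtf18, of an alternative clamp loader (0.82, adjusted p = 0.000195), Timeless, of the fork protection complex (0.76, adjusted p = 0.000177), and Atad5, which helps to unload PCNA (0.70, adjusted p = 0.000295). The 3 largest falls were Samhd1, which breaks down deoxynucleotides (-1.17, adjusted p = 2.84e-06), Chtf8, a partner of Chtf18 (-0.84, adjusted p = 2.56e-05), and Donson, a factor that helps to assemble the helicase (-0.65, adjusted p = 0.000204). Samhd1 stood at 335 and 322 TPM in CS1 libraries, against 738 and 739 TPM in PBS libraries. Mcmbp, which binds MCM proteins, also fell by 0.27 (adjusted p = 0.000783), and was named after its value was seen. In the E2F and RB families 2 of 12 genes were higher, E2f8 (0.41) and Tfdp1 (0.22), and 5 were lower, E2f6 (-0.60), E2f4 (-0.54), Rbl2 (-0.34), Rb1 (-0.33) and E2f2 (-0.27). Among the activating E2Fs, E2f2 stood at 105 and 99.2 TPM in CS1 libraries, against 124.5 and 122 TPM in PBS libraries (adjusted p = 0.000946). E2f1 stood at 34.7 and 34.9 TPM in CS1 libraries and 33.0 and 34.5 TPM in PBS libraries, and neither E2f1 nor E2f3 was called. The genes of these families were named after their values were seen.

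Mitosis genes, which act after replication, were higher in nearly every case. Of 32 genes 29 were higher (90.6%, against 35.3% of all tested features) and 0 lower, with a median log2 fold change of 0.53, while the 46 replication genes had 0.11. The largest rises were Ube2c (1.11), Smc4 (1.08) and Cenpf (1.02), and the genes not called were Bub1, Bub1b and Espl1. No test of the difference between the lists was made. Mki67, the Ki-67 marker of dividing cells, stood at 164 and 166 TPM in CS1 libraries, against 148 and 145 TPM in PBS libraries (0.17, adjusted p = 0.00203). Mki67, Kif11 (0.20) and Smc2 (0.23) had the smallest rises that were called. The 6 MCM genes lay at -0.38 at the median, below both lists.

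**Figure D5:**
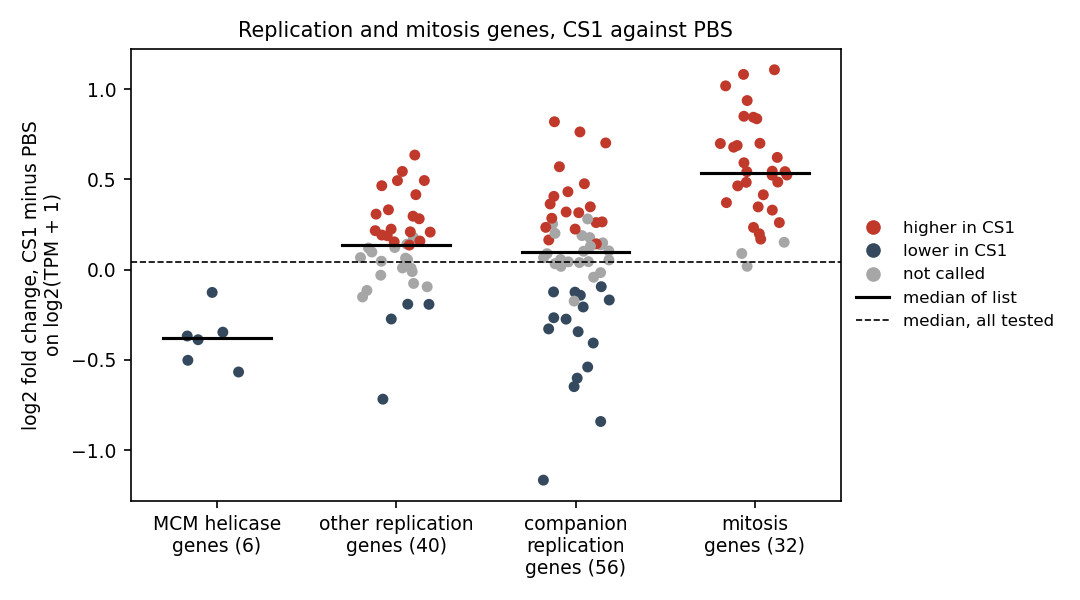
Log2 fold change, CS1 minus PBS, of the 6 MCM genes, the other 40 replication genes, 56 companion replication genes and 32 mitosis genes; each point is a gene, black lines are medians of the lists and the dashed line is the median of all tested features (0.04). The MCM genes all lie below 0 (median -0.38), the companion genes spread on both sides, and the mitosis genes lie above 0 (median 0.53).

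Summed TPM was 977973 and 978426 in CS1 libraries and 986084 and 986345 in PBS libraries, and read depth is unknown. TPM is scaled to a fixed total, so the closeness of these sums is no check on the libraries. Fto, the target of CS1, was not called, at 31.95 and 30.9 TPM in CS1 and 29.5 and 30.9 TPM in PBS, which is a transcript level and not a measure of FTO activity. Markers of the leukaemic myeloid cells summed to 5468 and 5498 TPM in CS1 libraries, against 3307 and 3355 TPM in PBS libraries. Of 10 such markers 7 were higher (Elane, Mpo, Flt3, Hoxa9, Cd33, Meis1 and Kit) and 3 lower. Over all tested features 35.3% were higher and 31.6% lower. Kit had the lowest level of the 10, at 16.8 and 18.1 TPM in CS1 against 5.25 and 4.33 TPM in PBS. Elane, the neutrophil elastase gene, stood at 2490 and 2533 TPM in CS1 libraries, against 424 and 427 TPM in PBS libraries. Mpo stood at 805 and 821 TPM in CS1 libraries, against 160 and 163 TPM in PBS libraries. Ptprc, which encodes CD45, the antigen used to enrich the cells, stood at 323 and 315 TPM in CS1 libraries, against 583 and 597 TPM in PBS libraries. The other lower markers were Itgam, at 509 and 504 TPM in CS1 against 976 and 988 TPM in PBS, and Csf1r, at 305.3 and 305.3 TPM in CS1 against 508 and 512 TPM in PBS. Markers of other cells had lower sums. Erythroid markers summed to 43.1 and 36.8 TPM in CS1 against 19.1 and 19.6 TPM in PBS, nearly all of it from globin genes. Hbb-bs stood at 13.5 and 12.2 TPM in CS1 and at 0.01 in both PBS libraries. In CS1 replicates 1 and 2, Hba-a1 stood at 26.1 and 0.01 TPM and Hba-a2 at 0.01 and 19.3 TPM. The values of single globin genes are therefore uncertain. B cell markers summed to 34.5 and 31.7 TPM in CS1 against 55.3 and 53.7 TPM in PBS. T cell markers summed to 7.04 and 6.86 against 11.8 and 10.98 TPM, and NK cell markers to 0.47 and 0.50 against 1.67 and 1.62 TPM. Spleen macrophage markers summed to 108 and 109 TPM in CS1 against 167 and 169 TPM in PBS, nearly all of it Adgre1, which monocytes also express. The other macrophage markers tested were higher in CS1, Slc40a1 at 8.05 and 7.62 TPM against 1.34 and 2.18 TPM in PBS and Vcam1 at 1.37 and 1.51 TPM against 0.47 and 0.85 TPM in PBS, and C1qa, C1qb and C1qc were under 1 TPM in every library. Pf4 and Ppbp of megakaryocytes were at the lowest listed value of 0.01 in every library, and stromal and endothelial markers summed to 37.9 and 36.1 against 45.5 and 43.6 TPM, nearly all of it Pecam1. The part of these shifts in the changes of the replication genes was not tested.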

How the data were processed

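Poly(A) RNA was sequenced from CD45.2-enriched spleen cells, with 2 CS1 and 2 PBS libraries grouped by title. STAR, RSEM and the build mm10 are named in the submitters' processing notes, with no versions or roles. The deposited values were taken as TPM made by the authors, which was inferred from their decimals and column sums (977973 to 986345), and 0.01 is the lowest value; depth is unknown, so no counting interval is given. A TPM is a share, so abundant transcripts can shift others.

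The 11866 features that reached 1 TPM in 2 or more of the 4 libraries were fitted on log2(TPM + 1) by limma 3.58.1 under R 4.3.3, with a mean-variance trend, two-sided, with Benjamini-Hochberg adjustment over all features and calls at an adjusted p under 0.05. The code was tested on simulated data. Every adjusted p in the text comes from this fit or its alternatives: pseudocount 0.1, no filter, 5 TPM, TMM scaling (trimmed mean of M-values, written out in R), quantile normalization, no trend, a replicate block, and each library left out. Permuting 4 libraries could not reach the threshold for a single gene. Nothing in the labels ties replicates to separate animals, so p-values measure the spread between these libraries, which may be technical.

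The 46 genes, their roles and the companion, mitosis and marker lists were chosen with earlier results of these data known. Every called gene is named; values per library are given for called genes with a log2 change of at least 0.25, the smallest p in each role and compared partners; of the companion and mitosis lists, the 3 highest and 3 lowest changes among called genes are named, with Mki67 as a proliferation marker, and exceptions are marked. Coordinates and exons are from GENCODE M21 (GRCm38, the assembly of mm10).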

Additional observations from a re-analysis of the deposited data

How the results depend on the processing

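Pseudocount 0.1 and the 5 TPM filter changed no call; Orc1 was left untested by the latter. With no filter 10 genes were higher and 6 lower, against 19 and 10, and 11 companion genes were higher, against 18. Leaving out a library gave 12 to 13 higher (12 without CS1 replicate 2) and 7 to 9 lower, and a median over the 46 of 0.085 to 0.119; it was 0.081 after TMM scaling and 0.082 after quantile normalization, against 0.11. The MCM median was -0.317 after quantile normalization. The Okazaki median was 0.066 after TMM scaling and 0.128 after quantile normalization, and 0 to 1 genes were called. The origin recognition median was 0.123 after quantile normalization and 0.133 to 0.322 when a library was left out.

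The licensing median was 0.083 after quantile normalization and -0.044 to 0.063 when a library was left out, reversed at -0.044 without PBS replicate 2. Its count higher was 1 after quantile normalization and 0 to 1 without a library; its count lower was 0 with no filter, no trend or the replicate block, and 0 to 1 without a library. Helicase activation had 1 higher with no filter, quantile normalization or the replicate block, and 1 to 2 without a library; it had 0 lower with no filter, no trend or the block, and 0 to 1 without a library. Polymerases delta and epsilon had 1 higher with no filter, TMM, quantile normalization, the block or any library left out, and 1 lower under the block. The clamp and its loader had 1 higher with no filter, TMM, quantile normalization or no trend, and 1 to 2 without a library; 2 were lower after TMM scaling. Single-strand binding had 0 higher with no filter, 1 after TMM scaling or with no trend, and 1 to 2 without a library. Chromatin assembly had 1 higher with no filter, TMM, quantile normalization, no trend or the block, and 1 to 2 without a library.

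Signs turned in genes that were not called: Orc1 (-0.107 after quantile normalization, -0.086 to 0.331 without a library), Cdt1 (-0.02 after TMM scaling, -0.044 to 0.063 without a library), Cdc45 (-0.137 to 0.075 without a library), Gins3 (-0.076 after quantile normalization), Pold3 (-0.021 after TMM scaling, -0.042 to 0.059 without a library), Rfc3 (-0.029 to 0.156 without a library) and Rpa1 (0.078 after quantile normalization, -0.064 to 0.042 without a library). Same-numbered replicates did not deviate together (r = 0.0219 over 11866 features), so the numbers were not taken as pairs. The replicate block, as an alternative, gave 15 genes higher and 9 lower; it lost 6 calls and gained Pold2. With a library left out, an arm holds 1 sample, which is assumed to vary like the others. The cause of these shifts was not tested, and unknown depth limits what can be said of the low genes.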
